A study of Homo sapiens with 30 samples.

Results

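The oncofetal and liver cancer markers described here are 8 genes of 60107 in the count table: AFP, ALB, GPC3, DLK1, H19, MDK, SPINK1 and GOLM1. They were taken by symbol, as genes read in blood or tissue in liver cancer, by a rule that uses no measured value but was set with earlier results of these data known, and each symbol matched 1 line of the table. Their RNA was counted in 30 libraries of HepG2 cells, an established human liver cancer line, in 10 groups of 3 replicates. Every culture was transfected with an oligonucleotide and received sorafenib, a kinase inhibitor used against liver cancer that has spread, at 10 µM or its solvent dimethyl sulfoxide (DMSO), added 24 h after transfection. In the groups IC_DMSO, IC_sorafenib, I200c_DMSO and I200c_sorafenib, cells carried an inhibitor control (IC) or an inhibitor of miR-200c-3p (I200c) and were lysed 6 h after treatment. In MC_DMSO, MC_sorafenib, M222_DMSO, M222_sorafenib, M512_DMSO and M512_sorafenib, lysis followed after 24 h. There MC stands for the control for mimics, M222 for a mimic copying miR-222-5p and M512 for one copying miR-512-3p. No untransfected group was analysed, and all groups are of 1 cell line. The study describes its 3 replicates as independent, and the labels do not say that they came from separate cultures. The p-values therefore measure only the spread between these libraries.

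Oncofetal genes are active in the fetal liver, fall silent around birth and are often active again in liver tumours. AFP encodes alpha-fetoprotein, the main plasma protein of the fetus, and ALB encodes albumin, its adult counterpart and neighbour on the chromosome. Both are transcribed in liver cells by factors that include the HNF4, FOXA and C/EBP families. GPC3 encodes glypican-3, a heparan sulfate proteoglycan of the cell surface that is stained by pathologists in hepatocellular carcinoma. DLK1 and H19 are imprinted genes of fetal growth, the first a membrane protein of hepatoblasts and the second a long non-coding RNA. MDK encodes midkine, a secreted growth factor that binds heparin, SPINK1 a secreted trypsin inhibitor, and GOLM1 the Golgi protein GP73.

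In GRCh38 coordinates with the GENCODE annotation, ALB (chr4:73397114-73421482) and AFP (chr4:73431138-73456174) lie in the same orientation, with ALB first. GPC3 lies at chrX:133535745-133987100, DLK1 at chr14:100725705-100738224 and SPINK1 at chr5:147824572-147831671. H19 (chr11:1995166-2004552) holds the miRNA gene MIR675 on its own strand. MDK (chr11:46380756-46383837) overlaps the end of CHRM4, a gene on the other strand, with its own 3′ end, and GOLM1 lies at chr9:86026146-86100173. Within GPC3 lie the pseudogenes RPS24P19 and RPSAP63 and the transcript GPC3-AS1, all on the other strand. Whether counting used strand is not given in the sources used here, so reads of these overlapping genes cannot be told apart from those of MDK and GPC3.

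The sequences of the 3 miRNAs that were blocked or imitated show which word each pairs with. They are given from RefSeq (GRCh38.p14), with the seed, bases 2 to 8, in capitals, and no seed is shared:
hsa-miR-200c-3p: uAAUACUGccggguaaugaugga
hsa-miR-222-5p: cUCAGUAGccaguguagauccu
hsa-miR-512-3p: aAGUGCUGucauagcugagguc
The reverse complement of the seed was searched in the 3′ untranslated region (UTR) of the main transcript of each member, and in the whole transcript of H19. No member held the word CAGTATT of miR-200c-3p or CTACTGA of miR-222-5p, which stood in 16% and 9.21% of 19548 UTRs. The word CAGCACT of miR-512-3p, found in 19.6% of those UTRs, stood once in AFP (chr4:73455919-73455925, plus strand) and once in ALB (chr4:73421267-73421273, plus strand), and in no other member. Both words are shown in capitals within 30 bases of the UTR:
AFP: tccaaggatggatttaCAGCACTagatcac
ALB: atctaatagagtggtaCAGCACTgttattt
A match is a description of the sequence and not a shown binding site.

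The total count was 3938764 to 9657063 per library, which puts the level that a count of 0 allows (3 counts) at 0.311 to 0.762 CPM (counts scaled to a common library size), for counting error only. The liver identity of the line was seen in all 7 hepatocyte markers examined, among them APOB at a mean of 3652 CPM. Of the listed markers of other cells, some were at 0 in all 30 libraries. These were CD3E and MS4A1 (lymphocytes), VWF, KDR and STAB2 (endothelium), COL1A2, DCN and LUM (stellate cells or fibroblasts) and CFTR (bile duct). Other markers on the same lists were detected. LYZ (mean 172 CPM), CD68 (4.47 CPM), ACTA2 (57.1 CPM), KRT19 (383 CPM), SOX9 (177 CPM) and EPCAM (122 CPM) had a count in every library. COL1A1 (at most 11.7 CPM), PDGFRB (at most 5.94 CPM) and PECAM1 (at most 3.05 CPM) were at 0 in 4, 8 and 13 of the 30 libraries. PTPRC, CD163, CDH5, LYVE1, COL3A1 and KRT7 were at 0 in 18 to 29 libraries and reached at most 1.49 CPM. Mitochondrial genes held 17.5% to 26.8% of counts. Levels below are CPM scaled with TMM factors over all 30 libraries. Each library read a single fragment per transcript near its 3′ end, so CPM was not divided by gene length.

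The markers fell into 5 abundant and 3 barely detected genes. ALB was the most abundant, with 11644 to 38886 counts per library and a mean of 3361 CPM, rank 25 of all genes. AFP had 3478 to 22641 counts (mean 1706 CPM, rank 51) and GPC3 2440 to 9569 (mean 706 CPM, rank 139). DLK1 (mean 171 CPM) and MDK (mean 131 CPM) followed, with at least 537 and 393 counts in every library. SPINK1 (mean 2.93 CPM, at most 54 counts), H19 (mean 1.88 CPM, at most 43 counts) and GOLM1 (mean 0.497 CPM, at most 17 counts) had a count of 0 in 2, 4 and 13 of the 30 libraries. A filter on low counts therefore left 7 members to be tested within 6 h and within 24 h, without GOLM1, and 6 in the comparison of the transfection controls, without GOLM1 and H19.

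**Figure D1:**
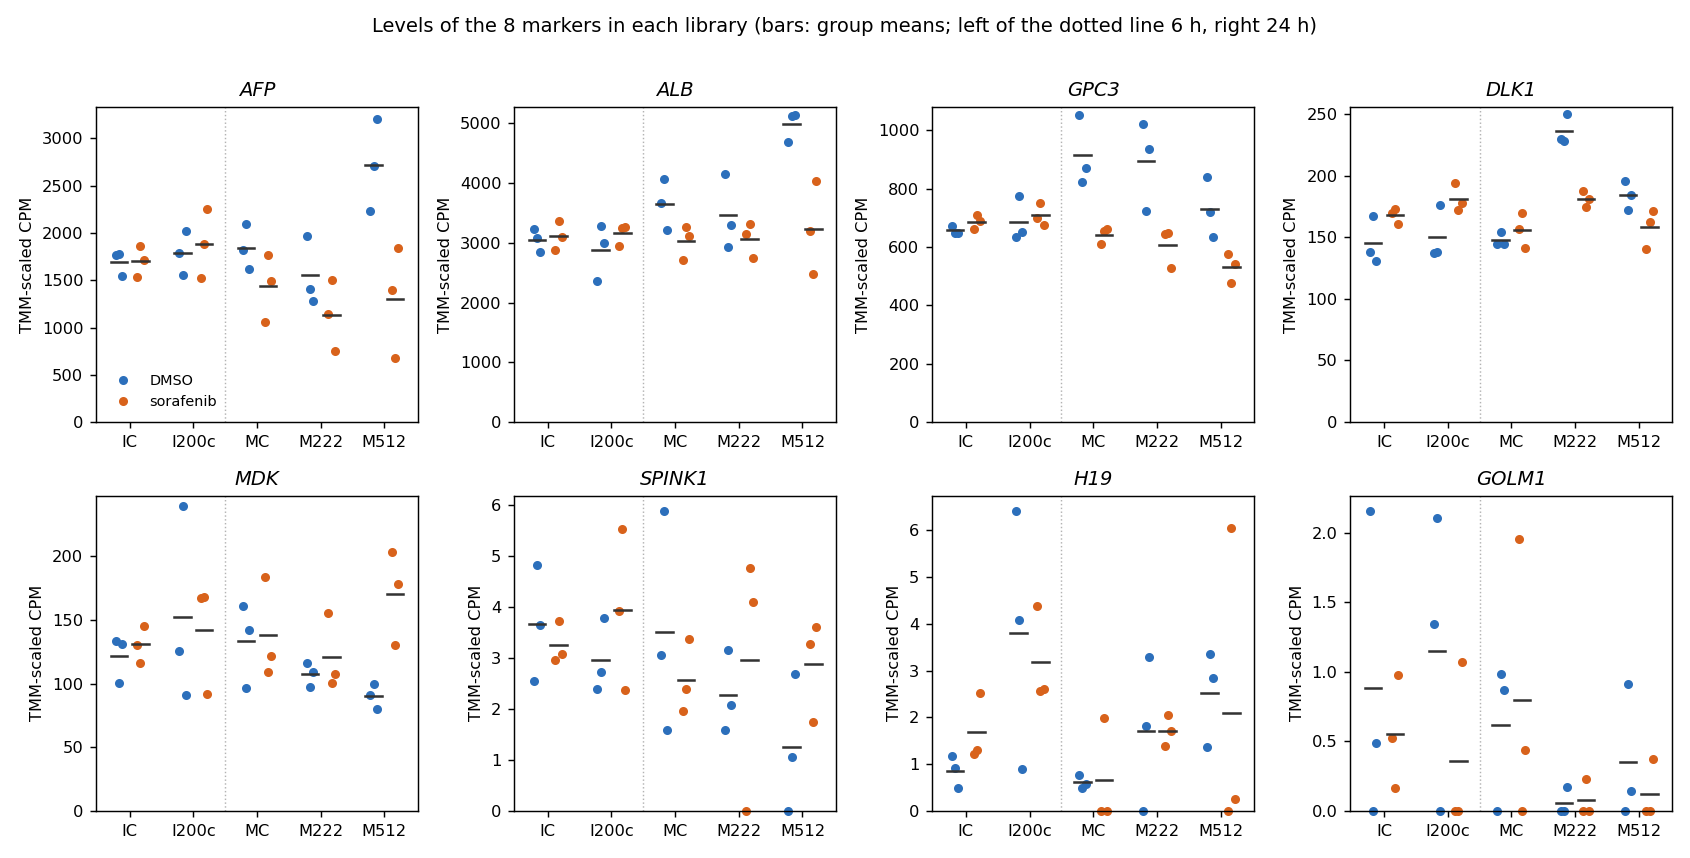
TMM-scaled CPM (y axis, linear, from 0) of each of the 8 markers in every library, by transfection (x axis) and treatment (blue DMSO, orange sorafenib), with horizontal bars at the mean of 3 libraries and a dotted line between the 6 h and 24 h experiments. M512_DMSO holds the 3 highest ALB values and the 2 highest AFP values, the 3 M222_DMSO libraries the highest DLK1 values, and GPC3 is lower with sorafenib than with DMSO in every transfection of 24 h.

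At 6 h, the mean log2 fold changes of the 5 abundant markers with sorafenib lay between 0.00 and 0.23. No tested member was called in IC, where 0.0393% of 12738 genes were called, in I200c, where 2.28% were, or for the mean of both transfections, where 2.89% were. A gene was called at a Benjamini-Hochberg adjusted p under 0.05 over all genes tested (edgeR quasi-likelihood F test). AFP stood at 1769, 1774 and 1547 CPM in IC_DMSO and at 1535, 1865 and 1713 in IC_sorafenib, and the groups overlapped. Over both transfections its log2 fold change was 0.04 (95% interval -0.18 to 0.26). The same value was 0.07 (-0.12 to 0.27) for ALB, 0.05 (-0.13 to 0.23) for GPC3 and 0.00 (-0.39 to 0.39) for MDK. These intervals leave room for a change of MDK in either direction that is wider than that of the others. DLK1 was the member with the largest ratio to its error, with a log2 fold change of 0.23 (SE 0.10, unadjusted p 0.0394, adjusted p 0.293). Its values were 138, 168 and 131 CPM in IC_DMSO against 170, 173 and 161 in IC_sorafenib, and 137, 138 and 176 in I200c_DMSO against 194, 172 and 178 in I200c_sorafenib. The ranges overlapped in both transfections.

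At 24 h, AFP, ALB and GPC3 were lower with sorafenib and MDK was higher. Taking the mean of the 3 transfections, 4 of the 7 tested members were called, 1 higher and 3 lower, while 25.8% of 13244 genes were called, 13.4% higher and 12.4% lower. Scaling by total counts instead of TMM changed that split from 1779 higher and 1638 lower to 1204 higher and 2462 lower. The median log2 fold change was -0.17 over the 7 tested members and -0.04 over all genes. In M512 alone 3 were called (AFP and ALB lower, MDK higher), where 9.96% of genes were called, 5.34% higher and 4.62% lower. No member was called in MC, where 2.6% of genes were, or in M222, where 4.38% were. Beside these values, the summed level of the 7 hepatocyte markers was 7564 to 8598 CPM in MC_DMSO and 4362 to 5928 in MC_sorafenib, 6454 to 7448 and 3684 to 5263 in M222, and 8054 to 9373 and 5017 to 5939 in M512. APOB (mean 3652 CPM over the 30 libraries) was the largest part of this sum, followed by TF (1013 CPM). Of the 7 hepatocyte markers, 0 were called in MC, 2 in M222, 2 in M512 and 3 for the mean of 24 h, all lower. The 7 stellate cell markers, which were almost entirely ACTA2, summed to 83.8 to 116 CPM in MC_DMSO and 55.5 to 73.8 in MC_sorafenib, to 62.6 to 83.0 and 48.2 to 53.6 in M222, and to 51.8 to 54.3 and 27.0 to 37.7 in M512. The 5 bile duct markers summed to 635 to 794 CPM in MC_DMSO and 494 to 650 in MC_sorafenib, to 694 to 882 and 535 to 613 in M222, and to 649 to 748 and 508 to 626 in M512. The 6 leukocyte markers summed to 100.1 to 139 CPM in MC_DMSO and 102 to 158 in MC_sorafenib, to 159 to 234 and 153 to 194 in M222, and to 246 to 309 and 119 to 201 in M512. The treatments did not overlap for hepatocyte or stellate markers in any of the 3 transfections, for bile duct markers in M222 and M512, and for leukocyte markers in M512. The 6 endothelial markers summed to at most 4.11 CPM. Their part in the results was not tested. All libraries were of 1 cell line, so these sums are RNA levels of the listed genes and not counts of cells. In such bulk samples, a level that changed in all cells and one that changed in some cells cannot be told apart.

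**Figure D2:**
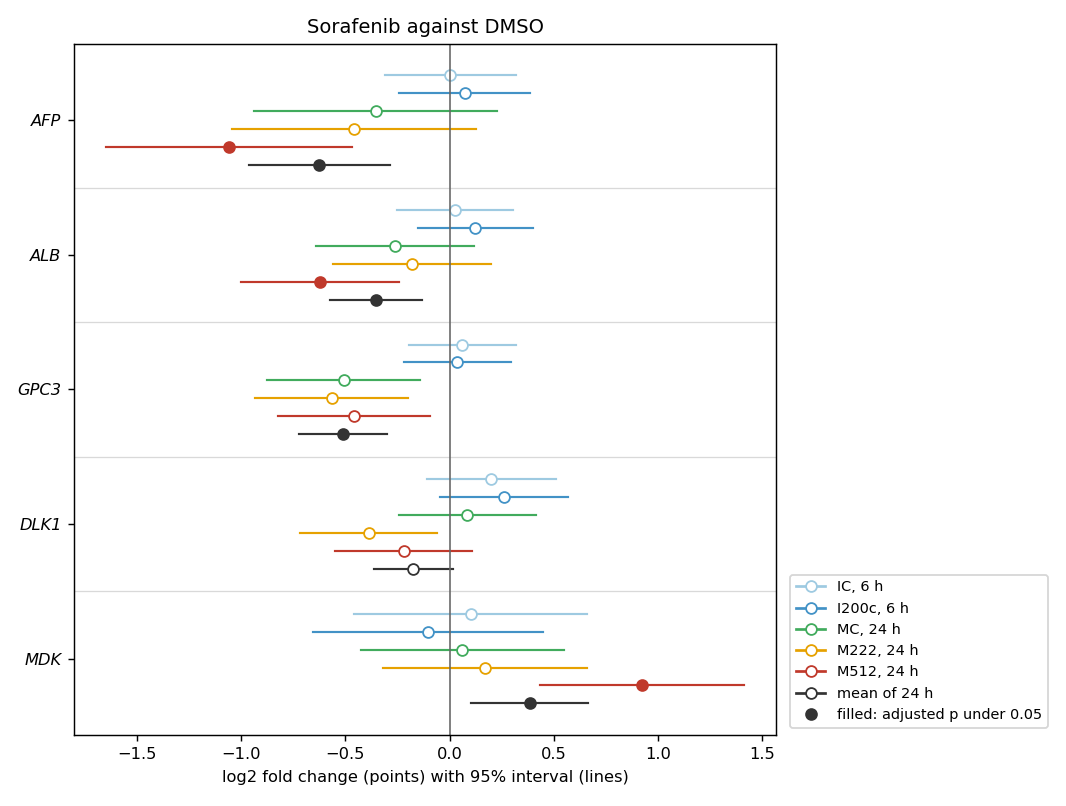
Log2 fold change of sorafenib against DMSO (x axis) for the 5 abundant markers (y axis) in each transfection and for the mean of the 3 transfections of 24 h, with lines for the 95% interval, not adjusted for the number of genes, and filled points for an adjusted p under 0.05. AFP, ALB and GPC3 lie left of 0 in all 3 transfections of 24 h and close to 0 at 6 h, and MDK is farthest to the right in M512 (0.92).

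GPC3, the cell surface glypican, gave the most even response across transfections. It stood at 1052, 823 and 871 CPM in MC_DMSO and at 611, 655 and 660 in MC_sorafenib. In M222 the values were 1020, 724 and 936 with DMSO and 643, 648 and 528 with sorafenib. In M512 they were 840, 720 and 635 with DMSO and 576, 476 and 541 with sorafenib. The 2 treatments did not overlap in any of the 3 transfections. Taken singly, the treatments did not overlap for 24.9% of genes in MC, 26.8% in M222 and 29.9% in M512. The share of genes without overlap in all 3 was not computed. Over the 3 transfections GPC3 fell by 0.51 on the log2 scale, a 1.42-fold lower level (SE 0.10, adjusted p 0.000667), and it remained called in each of the 18 fits that left out 1 library (adjusted p 0.000531 to 0.00455). Within a transfection the log2 fold change was -0.51 in MC (adjusted p 0.125), -0.56 in M222 (adjusted p 0.0696) and -0.46 in M512 (adjusted p 0.104), none of them called. Replicates of M222_DMSO and M222_sorafenib with the same number deviated together. A block by replicate number was fitted over all 18 libraries of 24 h. It therefore also paired MC and M512, where same-numbered deviations did not all correlate (-0.25 for MC replicate 3 and -0.06 for M512 replicate 1). With that block GPC3 was called in M222 (log2 fold change -0.56, adjusted p 0.0382), where all alternatives gave 0.0168 to 0.125. Without M222_DMSO replicate 2 it was also called there (-0.66, adjusted p 0.0433). In MC the alternatives gave adjusted p of 0.0377 to 0.230.

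AFP, the fetal plasma protein, moved most in M512. Its 3 levels with the miR-512-3p mimic were 2227, 2712 and 3207 CPM in DMSO and 1393, 679 and 1845 in sorafenib. Of the other 27 libraries, 1 (I200c_sorafenib replicate 3, 2257 CPM) reached the range of M512_DMSO. In MC they were 1820, 2092 and 1620 with DMSO and 1057, 1768 and 1488 with sorafenib, and in M222 1969, 1411 and 1278 with DMSO and 1140, 1507 and 753 with sorafenib. Treatments overlapped in MC and M222 and not in M512. Over the 3 transfections AFP fell by 0.62 on the log2 scale (SE 0.16, 1.54-fold lower, adjusted p 0.00654), and it was called in all 18 fits without 1 library (adjusted p 0.00122 to 0.0242). In M512 it fell by 1.06 (SE 0.29, 2.08-fold lower, adjusted p 0.0189). The log2 fold change was -0.36 in MC (SE 0.28, adjusted p 0.562) and -0.46 in M222 (SE 0.28, adjusted p 0.402). The M512 call rested on single libraries, with adjusted p of 0.0607 without M512_DMSO replicate 2, 0.10 without M512_DMSO replicate 3 and 0.0822 without M512_sorafenib replicate 2, where the log2 fold changes were -1.02, -0.89 and -0.75.

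ALB, the adult plasma protein, followed AFP with smaller changes. In M512 it stood at 4691, 5115 and 5135 CPM with DMSO, above every other library, and at 3195, 2484 and 4034 with sorafenib. In MC it stood at 3658, 4060 and 3209 with DMSO and 2705, 3268 and 3120 with sorafenib, and in M222 at 4145, 2923 and 3303 against 3146, 3308 and 2744. As for AFP, the treatments overlapped in MC and M222 and not in M512. ALB fell by 0.35 over the 3 transfections (SE 0.11, 1.28-fold lower, adjusted p 0.0158) and by 0.62 in M512 (SE 0.18, 1.54-fold lower, adjusted p 0.0323). The fall over the 3 transfections was no longer called without MC_DMSO replicate 2 (adjusted p 0.0567), MC_sorafenib replicate 1 (0.0570), M222_sorafenib replicate 3 (0.0652) or M512_DMSO replicate 2 (0.0517), with log2 fold changes of -0.30, -0.30, -0.30 and -0.32. In M512 ALB was called in only 1 of the 6 fits without a library, the one without M512_sorafenib replicate 3. Without M512_DMSO replicates 1, 2 and 3 in turn the adjusted p was 0.0711, 0.128 and 0.125, at log2 fold changes of -0.66, -0.57 and -0.57. Without M512_sorafenib replicates 1 and 2 it was 0.0920 and 0.139, at -0.60 and -0.46.

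AFP and ALB were also set against each other within each library, a measure chosen after their values were seen and given without a test. It does not depend on the scaling of libraries. AFP counts per 100 ALB counts were 49.8, 51.5 and 50.5 in MC_DMSO and 39.1, 54.1 and 47.7 in MC_sorafenib. In M222 they were 47.5, 48.3 and 38.7 with DMSO and 36.2, 45.6 and 27.4 with sorafenib. In M512 they were 47.5, 53.0 and 62.5 with DMSO and 43.6, 27.3 and 45.7 with sorafenib, the only transfection of 24 h in which the treatments did not overlap. At 6 h the group means were 55.6 ± 1.63 in IC_DMSO and 54.7 ± 1.22 in IC_sorafenib (SD, n = 3), and 63.5 ± 14.7 and 59.5 ± 8.79 in I200c.

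**Figure D3:**
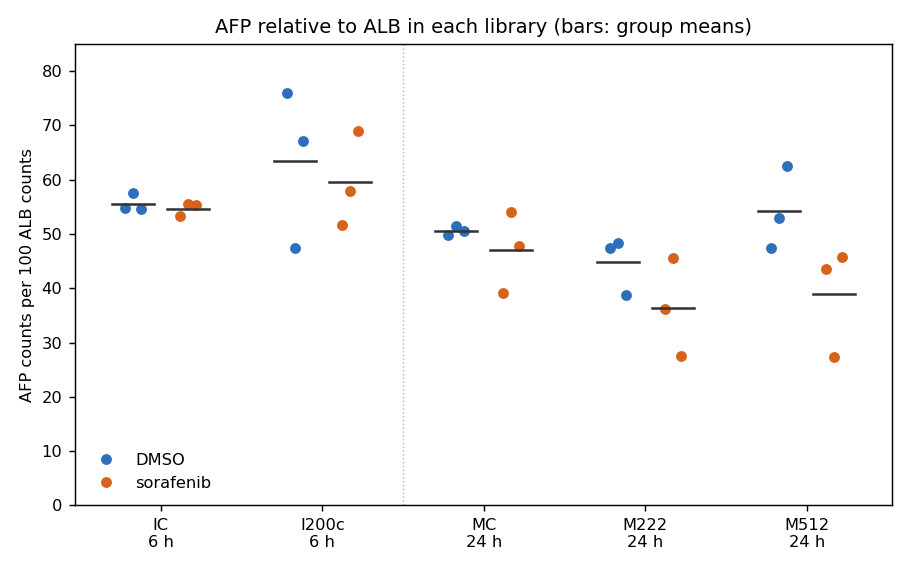
AFP counts per 100 ALB counts (y axis, linear, from 0) in every library, by transfection and time (x axis) and treatment (blue DMSO, orange sorafenib), with bars at the mean of 3 libraries. The lowest values are M512_sorafenib replicate 2 (27.3) and M222_sorafenib replicate 3 (27.4), and the highest is I200c_DMSO replicate 1 (76.0).

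MDK, the heparin-binding growth factor, was the marker that was higher with sorafenib. In M512 it stood at 91.2, 99.6 and 79.9 CPM with DMSO and at 203, 131 and 178 with sorafenib, and the groups did not overlap. In MC the values were 161, 96.6 and 142 with DMSO and 184, 109 and 122 with sorafenib, and in M222 116, 97.5 and 109 against 156, 101 and 107. Those groups overlapped. MDK rose by 0.92 in M512 (SE 0.24, 1.90-fold, adjusted p 0.0140) and by 0.38 for the mean of 24 h (SE 0.14, 1.30-fold, adjusted p 0.0404). In MC and M222 its log2 fold change was 0.06 (adjusted p 0.933) and 0.17 (adjusted p 0.752). In M512 it was not called without M512_DMSO replicate 3 (0.87, adjusted p 0.0631) or M512_sorafenib replicate 1 (0.79, adjusted p 0.0644).

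The MDK call for the mean of 24 h was the least stable of the 4. It was lost with total counts in place of TMM (log2 fold change 0.25, adjusted p 0.193) and with all 30 libraries in 1 fit (0.39, adjusted p 0.0502). It was also lost in 7 of the 18 fits without a library, at log2 fold changes of 0.33 to 0.39. For MDK the adjusted p was 0.0615 without MC_DMSO replicate 2, 0.0806 without MC_sorafenib replicate 1, 0.0813 without M222_sorafenib replicate 1, 0.0626 without M512_DMSO replicate 1, 0.0581 without M512_DMSO replicate 3, 0.0656 without M512_sorafenib replicate 1 and 0.0554 without M512_sorafenib replicate 3. Total-count scaling lowered the median log2 fold change of all genes by 0.13 for the mean of 24 h and by 0.19 in M512. Beside those changes, mitochondrial genes held 24.2%, 24.2% and 17.5% of counts in M512_sorafenib against 19.9%, 20.2% and 19.7% in M512_DMSO, and the part of this in the results was not tested.

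DLK1, the imprinted membrane protein, did not pass the test for the mean of 24 h (log2 fold change -0.17, SE 0.09, adjusted p 0.169). In M222 it stood at 230, 228 and 250 CPM with DMSO and at 188, 174 and 181 with sorafenib, with no overlap (-0.39, SE 0.16, adjusted p 0.173). In M512 it stood at 196, 172 and 184 against 141, 162 and 171, without overlap and with adjusted p 0.428. In MC DLK1 stood at 144, 154 and 145 against 157, 170 and 141, where the groups overlapped and the log2 fold change was 0.08. When libraries were scaled by total counts instead, the mean of 24 h was -0.31 for DLK1 and was called (adjusted p 0.0159).

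Whether the response differed between times or transfections was tested as an interaction, and no tested member was called in any of the 4 interactions. The shares of genes called were 0% for I200c, 0% for M222, 0.00755% for M512 and 0.216% for time. The largest member value for time was that of GPC3, whose log2 fold change was 0.60 lower in MC at 24 h than in IC at 6 h (log2 difference -0.60, SE 0.18, unadjusted p 0.00399, adjusted p 0.161). DESeq2 gave an adjusted p of 0.0452 for this difference. Time, kind of oligonucleotide control and experiment differ together here and cannot be told apart. For M512 against MC, the difference in the sorafenib response was 0.86 for MDK (SE 0.33, unadjusted p 0.0164, adjusted p 0.916) and -0.70 for AFP (SE 0.40, adjusted p 0.965). That AFP, ALB and MDK passed the test in M512 and not in MC is therefore not a shown difference between these transfections.

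The oligonucleotides themselves called no member. In DMSO, 0.0157% of genes were called for I200c against IC, 0% for M222 against MC and 0.634% for M512 against MC, and in sorafenib 0%, 0% and 0.355%. With the count of 0 in M222 against MC in DMSO, 737 of 13244 genes had an unadjusted p under 0.05, and DESeq2 called 33.

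**Figure D4:**
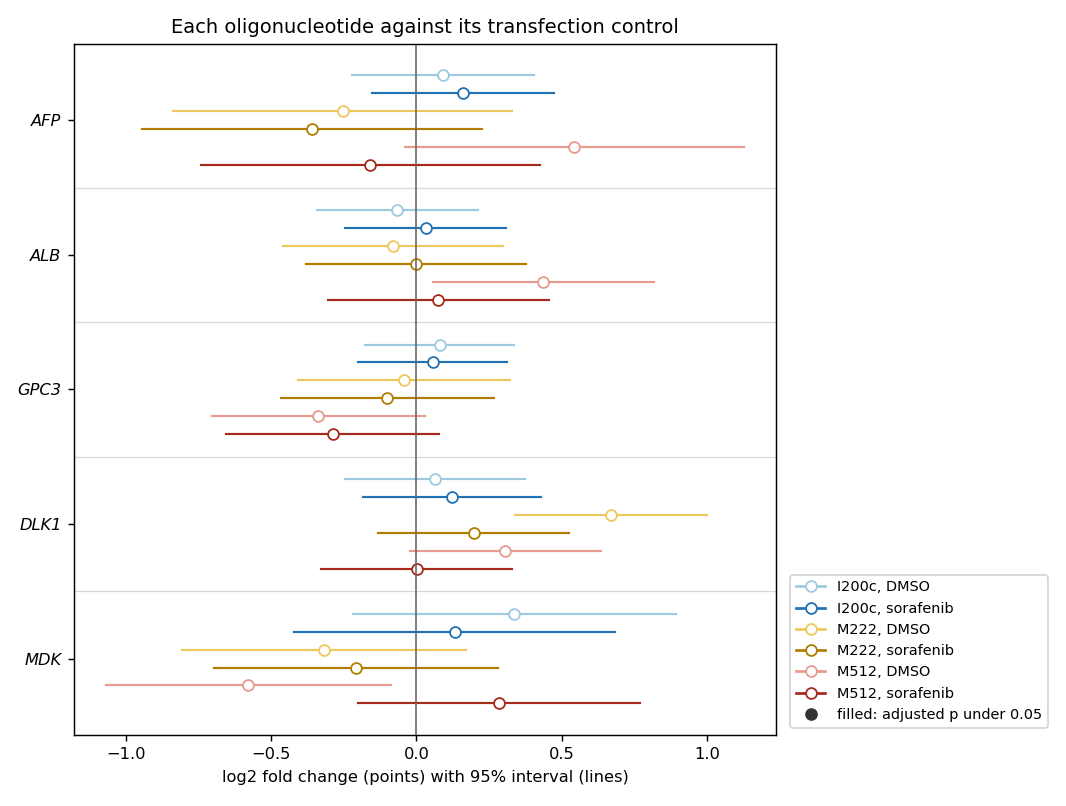
Log2 fold change of each oligonucleotide against its transfection control (x axis), in DMSO and in sorafenib, for the 5 abundant markers (y axis), with lines for the 95% interval, not adjusted for the number of genes. All points are open because none had an adjusted p under 0.05, and the points farthest from 0 are DLK1 with M222 (0.67), MDK (-0.58) and AFP (0.54) with M512, all in DMSO.

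DLK1 came closest to a call with the miR-222-5p mimic. The 3 M222_DMSO libraries (230, 228 and 250 CPM) were the highest of all 30 and did not overlap with MC_DMSO (144, 154 and 145) or with any other group. The share of all genes without overlap was not computed for M222 against MC, nor for M222_DMSO against every other group. The separation is therefore a description only. For sorafenib against DMSO at 24 h the share between 2 groups was 24.9% to 29.9%. It is no baseline here, because 2.6% to 9.96% of genes were called there, against 0% for M222 against MC. The log2 fold change was 0.67 (95% interval 0.34 to 1.00, 1.59-fold, unadjusted p 0.000315, adjusted p 0.191). DLK1 was called by DESeq2 (adjusted p 0.00625) and with all 30 libraries in 1 fit (adjusted p 0.0328), and the other alternatives reached up to 0.348. The DLK1 transcript held no seed word of miR-222-5p in its 3′ UTR. In sorafenib the log2 fold change of DLK1 in M222 was 0.20 (95% interval -0.13 to 0.53, adjusted p 0.953).

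With the miR-512-3p mimic in DMSO, AFP and ALB, the members with its seed word, had higher means than in MC. DLK1 and H19, which held no such word, also had higher means there. Whether the seed word had a part in any of these levels was not tested. AFP was 1.46 times the MC level (log2 fold change 0.54, 95% interval -0.04 to 1.13, adjusted p 0.518). ALB was 1.35 times that level (0.44, 95% interval 0.06 to 0.82, adjusted p 0.372). The 3 M512_DMSO libraries lay above the 3 MC_DMSO libraries for AFP, ALB, DLK1 and H19, though none of them was called, by edgeR or by any alternative. The share of all genes separated in this way was not computed for M512 against MC, so the separation is a description only. For sorafenib against DMSO at 24 h that share was 24.9% to 29.9%. It is no baseline here, because 2.6% to 9.96% of genes were called there, against 0.634% for M512 against MC. DLK1 was 1.24 times the MC level (0.31, adjusted p 0.518). H19, with at most 22 counts in M512_DMSO and 6 in MC_DMSO, had a log2 fold change of 1.98 (adjusted p 0.735). MDK was at 0.670 times the MC level (-0.58, adjusted p 0.349), and GPC3 at 0.791 times (-0.34, adjusted p 0.523). SPINK1, also at low counts, was lower too (-1.48, adjusted p 0.724). In sorafenib the log2 fold changes in M512 against MC were -0.16 for AFP, 0.08 for ALB, -0.29 for GPC3, 0.00 for DLK1 and 0.28 for MDK, with adjusted p of 0.579 or more. The contrast of M512 with MC in DMSO and that of sorafenib in M512 share the M512_DMSO libraries. The 6 leukocyte markers, of which LYZ made up nearly all, summed to 246 to 309 CPM in M512_DMSO against 100 to 139 in MC_DMSO, and the part of this was not tested.

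The inhibitor of miR-200c-3p was without a call among members at 6 h. The 95% intervals of I200c against IC in DMSO were -0.22 to 0.41 for AFP, -0.34 to 0.21 for ALB, -0.18 to 0.34 for GPC3, -0.25 to 0.37 for DLK1 and -0.22 to 0.89 for MDK. MDK stood at 126, 240 and 91.0 CPM in I200c_DMSO and at 134, 100.4 and 131 in IC_DMSO. I200c_DMSO replicate 2 held the highest MDK value of all libraries and also had the highest mitochondrial share (26.8%), and the part of this was not tested.

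Across groups, the order of the means was steep for few members. AFP was highest in M512_DMSO (2715 ± 490 CPM, SD, n = 3) and lowest in M222_sorafenib (1133 ± 377), and no neighbouring pair of groups in the order was free of overlap. ALB was highest in M512_DMSO (4980 ± 251), which did not overlap with the next group, MC_DMSO (3642 ± 426), and lowest in I200c_DMSO (2881 ± 479). GPC3 ran from MC_DMSO (915 ± 121) to M512_sorafenib (531 ± 50.8), with overlap between all neighbours. DLK1 ran from M222_DMSO (236 ± 12.1) to IC_DMSO (145 ± 19.4). It had gaps between M222_DMSO and M512_DMSO (184 ± 11.7) and between M222_sorafenib (181 ± 6.59) and IC_sorafenib (168 ± 6.29). MDK ran from M512_sorafenib (171 ± 36.8) to M512_DMSO (90.2 ± 9.88) with overlap between all neighbours, so both ends of its order belonged to the same mimic.

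As a description across the 30 libraries, which share treatments and depth, the levels of AFP and ALB had a Pearson correlation of 0.71 on the log2(CPM + 1) scale. AFP had 0.42 with GPC3 and ALB 0.41, while AFP and MDK had -0.35 and DLK1 and MDK -0.43. Among 8174 genes with a mean of at least 10 CPM, those most like AFP were CHKA (0.857), ABCD3 (0.853) and ACSL4 (0.818), and those most like ALB were FABP1 (0.864), MSMO1 (0.831) and SELENOP (0.818). For GPC3 they were C2orf68 (0.854), PEG10 (0.846) and PAQR8 (0.833), and for MDK they were RPL28 (0.832), CLTB (0.817) and SUPT6H (0.801). DLK1 had no gene above 0.685, the value of ATP5IF1.

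The 3 low markers gave no call in any comparison that tested them, and their depth limits what could be seen. H19, the imprinted non-coding RNA, had 43, 33 and 8 counts in I200c_DMSO against 6, 4 and 2 in IC_DMSO (3.80 ± 2.78 against 0.862 ± 0.349 CPM). Its log2 fold change there was 2.10 (95% interval 0.51 to 3.68, unadjusted p 0.0121, adjusted p 0.865), and the groups overlapped. It was at 0 in MC_sorafenib replicates 1 and 3, M222_DMSO replicate 1 and M512_sorafenib replicate 1. SPINK1, the trypsin inhibitor, was at 0 in M222_sorafenib replicate 1 and M512_DMSO replicate 1, and its group means were 1.25 to 3.95 CPM. For SPINK1 the sorafenib log2 fold change over the 3 transfections of 24 h was 0.38 (SE 0.63, adjusted p 0.698). GOLM1, the Golgi protein, had group means of 0.0578 to 1.15 CPM and did not pass the filter in any comparison, so no fold is given.

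The other genes of these pathways were taken as lists, drawn up by hand, also with earlier results known, and are given as counts with the mean of the 3 transfections of 24 h, in which 25.8% of all genes were called with a median of -0.04. Of 15 transcription factors of AFP and ALB, 15 were tested, 3 rose and 5 fell (median -0.34). Within single transfections this list's median differed in sign, at -0.05 in MC (1 higher and 0 lower), -0.54 in M222 (2 higher and 3 lower) and 0.21 in M512 (3 higher and 2 lower). CEBPB, which takes part in the acute phase and stress response, rose most (log2 fold change 1.95, SE 0.20, adjusted p 1.34e-07, 51.1 to 193 CPM). HNF4A, a central factor of hepatocyte identity, fell by 1.00 (SE 0.12, adjusted p 2.4e-06, 219 to 109 CPM). FOXA2, a pioneer factor of the liver, rose by 0.83 (SE 0.11, adjusted p 8.41e-06), and PROX1, a homeobox factor of liver development, fell by 1.03 (SE 0.16, adjusted p 5.45e-05). ZHX2, a repressor of AFP after birth, stood at 20.5 CPM with DMSO and 14.3 with sorafenib (-0.51, adjusted p 0.172).

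At 6 h, when no member was called, FOXA2 was already higher (log2 fold change 0.81, SE 0.10, adjusted p 0.000104) and CEBPA rose by 0.43 (SE 0.11, adjusted p 0.0335). They were the 2 called of 14 factors tested for the mean of 6 h, against 2.89% of all genes. HNF4A stood at 216 CPM with DMSO and 165 with sorafenib at 6 h (-0.38, adjusted p 0.171), and CEBPB at 58.5 and 64.5 (0.14, adjusted p 0.762). The lists of secreted proteins, growth genes, cancer markers and partners described next had 0 called genes in this comparison. At 24 h CEBPA was among the 5 factors that fell (-0.48, SE 0.14, adjusted p 0.0167).

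Of 16 secreted proteins of mature hepatocytes, all tested, 0 rose, 9 fell and 7 were not called for the mean of 24 h (median -0.46). FGA, a chain of fibrinogen, fell by 1.11 (SE 0.14, adjusted p 2.46e-06) and APOB, the protein of very low density lipoprotein, by 1.06 (SE 0.15, adjusted p 1.23e-05, 4673 to 2229.6 CPM). APOC3 fell by 0.82 (SE 0.14, adjusted p 0.000173) and APOH by 0.86 (SE 0.16, adjusted p 0.000315), both carried in plasma with lipoproteins. ALB's relatives AFM and GC were not tested because of low counts.

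Of 14 oncofetal and imprinted growth genes, 11 were tested, 1 rose and 4 fell (median -0.18). PEG10, an imprinted gene derived from a retrotransposon, fell by 0.88 (SE 0.12, adjusted p 9.02e-06, 2021 to 1092 CPM). IGF2BP1, an oncofetal RNA-binding protein, fell by 0.53 (SE 0.11, adjusted p 0.00105) and HMGA2, a fetal chromatin protein, by 0.47 (SE 0.10, adjusted p 0.00179). GRB10, an imprinted adaptor that restrains insulin signalling, rose by 1.18 (SE 0.21, adjusted p 0.00023). IGF2, the neighbour of H19 in its imprinted cluster, stood at 842 CPM with DMSO and 894 with sorafenib (0.08, adjusted p 0.855).

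Of 18 other liver cancer and progenitor markers, all tested, 2 rose and 5 fell (median -0.25). SOX9, a bile duct and progenitor factor, fell by 0.73 (SE 0.15, adjusted p 0.001), BIRC5, which encodes survivin, by 0.51 (SE 0.11, adjusted p 0.00171) and DKK1, a secreted Wnt inhibitor, by 1.19 (SE 0.27, adjusted p 0.00184). SQSTM1, the autophagy receptor p62, rose by 0.53 (SE 0.12, adjusted p 0.00229). In M512 against MC in DMSO, where 0.634% of all genes were called, this list had 2 called genes, EPCAM (0.82, adjusted p 0.0408) and AKR1B10 (2.69, adjusted p 0.0442), both higher. In that comparison 1 secreted hepatocyte protein was called, FGB, a chain of fibrinogen, which was lower (-1.02, adjusted p 0.00559), and the lists of transcription factors, growth genes and partners had 0 called genes. Of 22 partners of the secreted and surface members, 16 were tested, 2 rose and 1 fell (median -0.05). FURIN, the protease that cleaves glypican-3 and GP73, rose by 0.96 (SE 0.15, adjusted p 4.08e-05) and SDC4, a heparan sulfate proteoglycan of the cell surface, by 0.59 (SE 0.12, adjusted p 0.000469). SDC1, another such proteoglycan, fell by 0.38 (SE 0.13, adjusted p 0.0341).

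**Figure D5:**
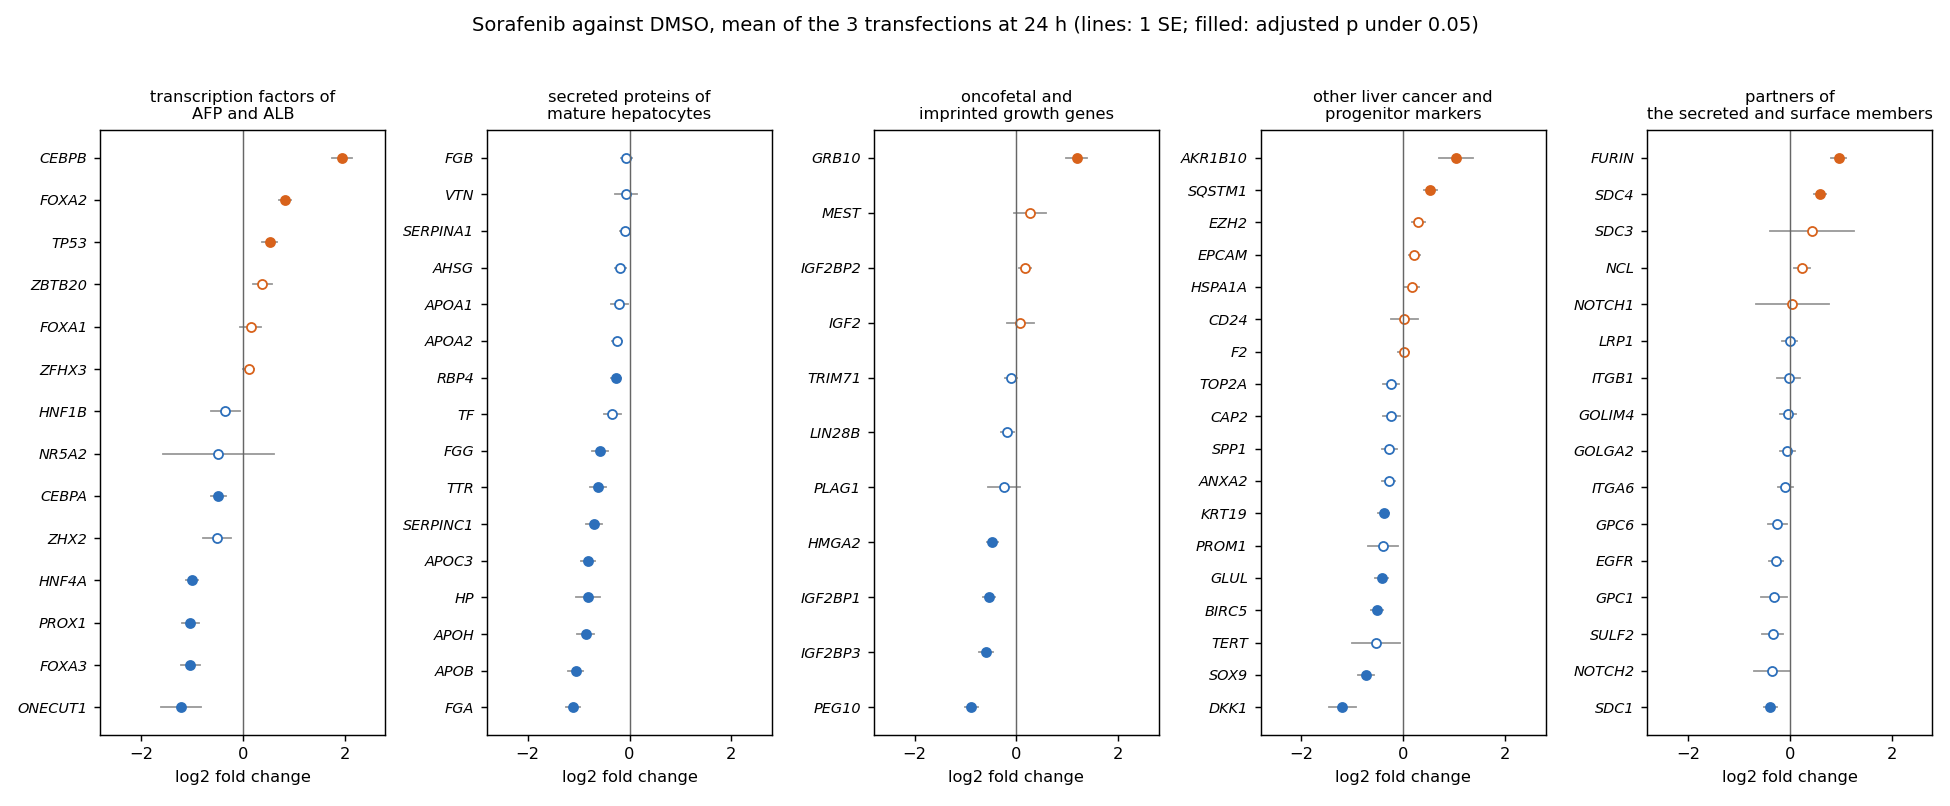
Log2 fold change of sorafenib against DMSO (x axis), mean of the 3 transfections of 24 h, for the tested genes of the 5 lists (y axis; 1 transcription factor is not shown), with lines for 1 SE, orange for values above 0, blue for values below 0, and filled points for an adjusted p under 0.05. The 16 secreted hepatocyte proteins all have values below 0, of which 9 were called, and CEBPB (1.95) is the highest point.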

How the data were processed

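Total RNA of HepG2 cells was turned into QuantSeq 3′ FWD libraries, which read near the 3′ end of polyadenylated RNA. The authors trimmed the reads, mapped them to GRCh38 (STAR, ENCODE settings with changes) and deposited raw counts per gene and library, which HTSeq-count gave within the QuantSeq pipeline of Bluebee. The submitters' processing notes name DRAGEN, STAR, HTSeq and DESeq2. The versions, the annotation release and the strand setting for counting are not given in the sources used here. A deposited table of normalised values was not used, because it holds the same counts divided by a factor per library.

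The count table held 60199 lines, of which 92 named no gene (3 counts in all) and were left out, and all 30 columns matched the labels. Of the gene identifiers, 56104 matched a symbol. Over the 30 replicate pairs the chi-square per degree of freedom was 4.54 to 66.2, so all replicates differed by more than sampling noise. After filterByExpr and TMM scaling in edgeR 4.0.16 (R 4.3.3), its quasi-likelihood F test was applied to each gene, with 1 coefficient per group and two-sided p-values, adjusted over all genes tested. The 12 libraries of 6 h, the 18 of 24 h and the 12 transfection controls were fitted apart, with 17 comparisons in all. The SE is the size of the log2 fold change over the square root of F, and 95% intervals use the t distribution of the same fit. The scripts were tested on simulated data. Levels are CPM computed here. PCR copies were not told apart from separate molecules, so floors cover counting error only.

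The members and lists were chosen with earlier results of these data known. All members are named. Of each list, up to 4 called genes with the smallest adjusted p are named per comparison. ZHX2, IGF2, CEBPA at 24 h and the uncalled HNF4A and CEBPB values at 6 h are named outside this rule, chosen after their values were seen. Likeness names the 3 genes that correlate best with a member. Alternatives were DESeq2 size factors in edgeR, total counts, no filter, DESeq2 1.42.0, a replicate block, all 30 libraries in 1 fit and leaving out each library. Replicate numbers were taken as pairs where the deviations of all 3 same-numbered libraries correlated above 0.1 across genes. This held for M222_DMSO with M222_sorafenib (0.199, 0.159 and 0.232) and for MC_DMSO with M222_DMSO (0.376, 0.322 and 0.381), and the labels name no shared batch. The replicate block covered all libraries of each fit, also groups where this did not hold. The values of 1 listed transcription factor are not reported here, though its list's counts and median include it. Sequences came from RefSeq and GENCODE on GRCh38.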

Additional observations from a re-analysis of the deposited data

How the results depend on the processing

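Among the members' tests, 688 of 701 values under other settings and 974 of 996 with a library left out stayed on the same side of the threshold. Most of these values were not called in the main test, so these counts say little about the stability of calls. Other settings lost 2 calls and added 11, and leaving out a library lost 21 and added 1. In M512, AFP kept its call in 3 of 6 fits without a library, ALB in 1 and MDK in 4. No called value changed sign, while 128 of all 1697 values changed sign without being called. In MC the count of members called at 24 h went from 0 to 1 with DESeq2 and with all 30 libraries in 1 fit, through GPC3. In M222 it went from 0 to 1 with total counts, DESeq2, the replicate block and all 30 libraries in 1 fit, also through GPC3, and was 0 to 1 with a library left out. In M512 it was 0 to 3 with a library left out, against 3, and total counts added GPC3. For the mean of 24 h it was 2 to 4, against 4. DESeq2 and the fit of all 30 libraries each called 1 member, DLK1, for M222 against MC in DMSO, and DESeq2 called 1, GPC3, for the time interaction. The cause of these differences was not tested. The replicate block (paired by number) changed no other member's call, and over all genes it called 3 and 7 for M222 against MC in DMSO and sorafenib, against 0 and 0.

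Counts over all genes moved by more than 1.5 times in several comparisons. DESeq2 called 35, 541, 729 and 1028 genes for sorafenib in IC, I200c, MC and M222, against 5, 291, 344 and 580 by edgeR. It called 232 and 237 for M512 against MC in DMSO and sorafenib, against 84 and 47, and 259 for the time interaction, against 27. The fit of all 30 libraries called 91 genes for sorafenib in I200c, 138 for the mean of 6 h (against 368), 822 in MC, 1104 in M222 and 2046 in M512 (against 1319). Without the filter 62, 519 and 684 genes were called in IC, I200c and MC, 292 and 169 for M512 against MC, and 386 for the time interaction. For M222 against MC, 47 and 46 genes were called without the filter, 33 and 24 by DESeq2 and 32 and 12 with all 30 libraries. With 3 libraries a group, the 95% intervals of single-transfection changes at 24 h were wide, such as -0.94 to 0.23 for AFP in MC, and H19, SPINK1 and GOLM1 were limited by depth.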
